A study of Homo sapiens with 6 samples.

Results

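YAP1, its paralog WWTR1 (the gene of the protein TAZ), the transcription factors TEAD1, TEAD2, TEAD3 and TEAD4, and the partner genes VGLL4, AMOT and AMOTL1 were examined in HCT116 cells, 9 genes of the 40173 genes listed. They were picked by symbol, and their 77 transcripts were summed per gene. HCT116 is a human colorectal cancer line. It was infected with a control lentivirus (MOCK) or with a lentivirus carrying the CYGB coding region fused with FLAG, and both lines were kept as stable cells after puromycin selection. CYGB encodes cytoglobin, a globin that binds oxygen. Each group had 3 RNA-seq libraries, labelled as replicates. Neither the labels nor the methods say that the lines were cloned or that the libraries came from separate infections, so p-values measure the spread between these libraries.

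YAP1 and TAZ are transcriptional coactivators without a DNA-binding domain. They leave the cytoplasm for the nucleus when the Hippo kinases LATS1 and LATS2 do not phosphorylate them, and there they bind TEAD factors, which recognise DNA through their TEA domain. VGLL4 competes with them for TEAD, and the angiomotins AMOT and AMOTL1 bind their WW domains and hold them at cell junctions and actin. In the intestinal epithelium this output is known for its part in regeneration after injury.

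YAP1 pre-mRNA is spliced in several ways that change the protein. In GENCODE 29 its protein coding transcripts differ by 3 segments, all on the plus strand of chromosome 11 of GRCh38. The first, chr11:102186018-102186131, has 114 bases and encodes 38 residues that hold the second WW domain. The other segments, chr11:102206075-102206086 with 12 bases and chr11:102209517-102209564 with 48 bases, lie in the part that encodes the transcription activation domain. Their sequences are shown because the counts of YAP1 split along them. Capitals mark the segment and lower case the 24 bases on either side, as spliced in the transcript from which each was read.
YAP1 114-base segment: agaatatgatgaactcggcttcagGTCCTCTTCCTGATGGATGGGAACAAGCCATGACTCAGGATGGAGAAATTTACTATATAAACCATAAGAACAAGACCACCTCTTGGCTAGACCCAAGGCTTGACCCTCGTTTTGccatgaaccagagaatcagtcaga
YAP1 12-base segment: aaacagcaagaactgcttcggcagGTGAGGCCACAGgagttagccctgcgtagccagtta
YAP1 48-base segment: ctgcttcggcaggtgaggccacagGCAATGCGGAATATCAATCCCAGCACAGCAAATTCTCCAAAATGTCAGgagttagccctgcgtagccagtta

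Library totals ranged from 58138393 to 66035266 counts. CYGB itself had 10, 28 and 34 counts in MOCK against 34935, 27681 and 32333 in CYGB libraries, which checks the labels. Of 11 markers of colon epithelium, 7 averaged at least 1 TPM (counts per length, scaled to the library) over the 6 libraries, with a summed level of 5464 to 5921 TPM in MOCK and 5524 to 5839 TPM in CYGB libraries. The differentiation markers VIL1, LGALS4 and CEACAM5 were near 0. Of 8 markers of immune, stromal and endothelial cells, CD68 and COL1A1 averaged at least 1 TPM. These are bulk libraries, so fewer cells with a transcript and less of it per cell cannot be told apart.

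The first comparison asked whether the total RNA of the 9 genes differed between CYGB-overexpressing and MOCK cells. None of the 9 passed the threshold of the study's methods, a ratio of at least 2 or at most 0.5 at an unadjusted p of 0.01 or less. Over all 19987 genes tested with edgeR's quasi-likelihood test, 113 passed it (0.565%). An adjusted p under 0.05 was reached by 11 genes (0.0550%) and an unadjusted p under 0.05 by 907 (4.54%), and 0 of the 9 genes were among them. DESeq2 also placed 0 of the 9 genes past either threshold, while 263 of all genes passed the threshold of the methods and 108 the adjusted one. The 3 CYGB values lay entirely above or below the 3 MOCK values in 2205 genes (11.0%) and in 0 of the 9. Their log2 fold changes (CYGB against MOCK) ran from -0.46 to 0.48, with a median of -0.06 beside -0.01 over all genes.

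**Figure D1:**
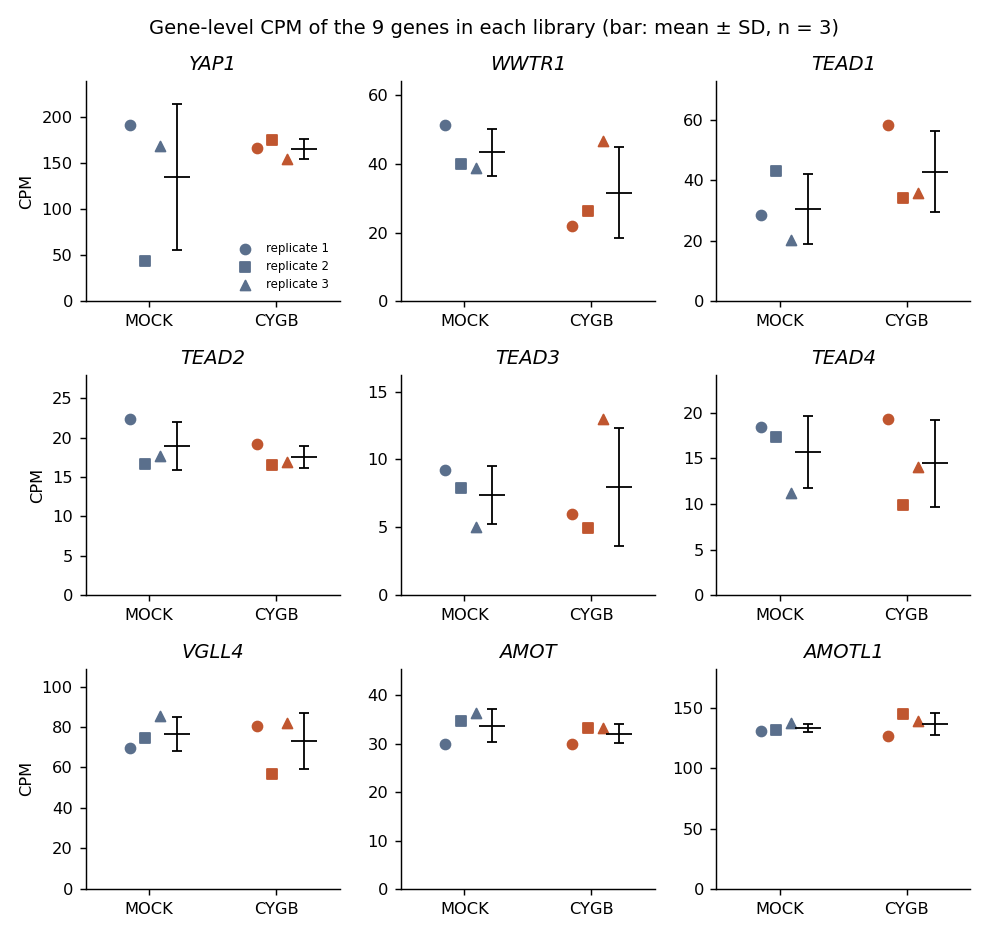
Gene-level CPM (TMM-scaled, linear axes from 0) of each of the 9 genes in the 3 MOCK and 3 CYGB libraries, with points for libraries and bars for mean ± SD. The groups overlap in every panel, and the YAP1 value of MOCK replicate 2, 44.0 CPM, lies far under the other 5 YAP1 values.

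Of the coactivators, YAP1 (ENSG00000137693, chr11:102110461-102233423) had 191, 44.0 and 169 CPM (counts scaled to library size) in MOCK replicates 1 to 3 and 166, 175 and 154 CPM in CYGB replicates 1 to 3. Only MOCK replicate 2 was low, and the other 5 libraries lay close together. MOCK averaged 135 ± 79.2 CPM (SD, n = 3), and CYGB-overexpressing cells 165 ± 10.8 CPM (SD, n = 3). The log2 fold change was 0.30 (SE 0.50, Benjamini-Hochberg adjusted p = 0.977, edgeR). It turned to -0.12 without MOCK replicate 2. A library at 1/3 or less of the next lowest occurred in 263 of 9947 genes of at least 10 CPM (2.64%), in 34 of them in MOCK replicate 2. Among the 8 of the 9 genes at that level, it occurred in YAP1 alone.

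WWTR1 (ENSG00000018408, chr3:149517235-149736714, minus strand) had 51.3, 39.9 and 38.8 CPM in MOCK and 21.8, 26.2 and 46.6 CPM in CYGB libraries. CYGB replicates 1 and 2 lay under all MOCK values, while CYGB replicate 3 lay within them. The log2 fold change was -0.46 (SE 0.31, adjusted p = 0.963 by the same edgeR test). Without CYGB replicate 3, the CYGB library that made the groups overlap, it was -0.85 with an adjusted p of 0.949. At the other end it was -0.25, without CYGB replicate 1.

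TEAD1 (ENSG00000187079, chr11:12674591-12944483) had 28.5, 43.0 and 20.2 CPM in MOCK and 58.2, 34.2 and 35.8 CPM in CYGB libraries. The highest value was in CYGB replicate 1, but MOCK replicate 2 exceeded the other CYGB values, so the groups overlapped. Its log2 fold change was 0.48 (SE 0.34, adjusted p = 0.963, edgeR). Without MOCK replicate 2, the MOCK library that made the groups overlap, it was 0.81 with an adjusted p of 0.9997. At the other end it was 0.19, without CYGB replicate 1.

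TEAD2 (ENSG00000074219, chr19:49340595-49362457, minus strand) ranged from 16.6 to 22.4 CPM in MOCK and from 16.5 to 19.2 CPM in CYGB libraries. TEAD4 (ENSG00000197905, chr12:2959330-3040673) ranged from 11.2 to 18.5 CPM in MOCK and from 9.88 to 19.3 CPM in CYGB libraries. TEAD3 (ENSG00000007866, chr6:35473597-35497076, minus strand) was the lowest of the family, at 5.03 to 9.25 CPM in MOCK and 4.96, 5.98 and 13.0 CPM in CYGB libraries. The 13.0 CPM of CYGB replicate 3 was the only TEAD3 value above the MOCK range. The log2 fold changes were -0.11 (SE 0.16) for TEAD2, 0.11 (SE 0.43) for TEAD3 and -0.12 (SE 0.31) for TEAD4. Each of these 3 signs turned when a single library was left out.

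Among the partners, AMOTL1 (ENSG00000166025, chr11:94706431-94876753) had 131, 131 and 137 CPM in MOCK and 126, 145 and 139 CPM in CYGB libraries. It was the steadiest of the 9 genes, with a coefficient of variation of 4.87% over the 6 libraries, and its log2 fold change was 0.04 (SE 0.08). AMOT (ENSG00000126016, chrX:112774503-112840815, minus strand) ranged from 29.9 to 36.4 CPM in MOCK and from 29.9 to 33.2 CPM in CYGB libraries, with a coefficient of variation of 7.97%. Its log2 fold change was -0.07 (SE 0.12). VGLL4 (ENSG00000144560, chr3:11556070-11771350, minus strand) had 69.4, 74.4 and 85.6 CPM in MOCK and 80.4, 57.0 and 82.0 CPM in CYGB libraries, and a log2 fold change of -0.06 (SE 0.17). YAP1, TEAD1 and TEAD3 spread most, with coefficients of variation of 35.6%, 35.5% and 40.3%.

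The level of each gene per length was set beside its relatives within each library, in TPM summed over transcripts. YAP1 had the highest mean, 68.1 ± 24.7 TPM (SD, n = 6), and had rank 1 in 5 libraries, but rank 5 in MOCK replicate 2 with 18.2 TPM. VGLL4 followed with 45.4 ± 6.12 TPM, WWTR1 with 36.2 ± 10.2 TPM and AMOTL1 with 29.9 ± 1.89 TPM (each SD, n = 6). From one to the next, these 4 differed by less than the larger SD. TEAD4 had 20.1 ± 4.68 TPM, TEAD2 16.6 ± 2.32 TPM, AMOT 12.6 ± 0.715 TPM and TEAD1 12.3 ± 4.03 TPM (each SD, n = 6). The ranges of AMOTL1 and TEAD4, and of TEAD2 and AMOT, did not overlap, while TEAD4 and TEAD2, and AMOT and TEAD1, differed by less than the larger SD. TEAD3, at 5.17 ± 2.00 TPM (SD, n = 6), had rank 9 in all 6 libraries.

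**Figure D2:**
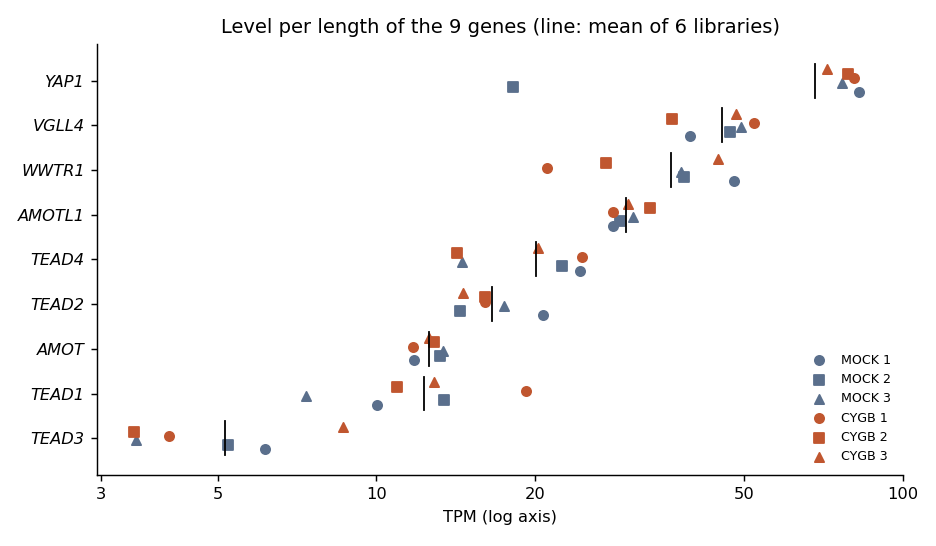
TPM (log axis) of the 9 genes in the 6 libraries, ordered by mean, with a vertical line at the mean. TEAD3 is lowest in every library, and YAP1 is highest in all libraries but MOCK replicate 2 and VGLL4 is highest there.

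Of the 8 pairs within a family, 5 kept their order in all 6 libraries. TEAD1, TEAD2 and TEAD4 exceeded TEAD3 by 1.27, 1.75 and 2.00 on the log2 scale, TEAD4 exceeded TEAD1 by 0.73, and AMOTL1 exceeded AMOT by 1.24. Each had p = 0.03125 in the exact two-sided sign-flip permutation test, which is the smallest that 6 libraries can give. Adjusted over the 8 pairs this was 0.05 by the exact test and not under it. YAP1 exceeded WWTR1 by 0.81 on the log2 scale, in 5 of 6 libraries (exact p = 0.156, adjusted 0.179), and by 1.19 without MOCK replicate 2. TEAD2 and TEAD4 differed by 0.25 on the log2 scale with a SD of 0.40 (exact p = 0.188), and TEAD1 and TEAD2 by 0.48 with a SD of 0.58 (exact p = 0.125).

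The order depended on the length used. With counts divided by the union of a gene's exons, YAP1 still had the highest mean, 79.0 TPM, and TEAD3 the lowest, 8.33 TPM, but WWTR1 moved from 36.2 to 14.7 TPM, under TEAD4 at 21.9 and TEAD2 at 20.3 TPM. YAP1 then exceeded WWTR1 by 2.34 on the log2 scale, and 6 of the 8 pairs had an adjusted exact p under 0.05. TEAD1 then exceeded TEAD3 by only 0.51 on the log2 scale (adjusted exact p = 0.214), and TEAD3 was above TEAD1 in MOCK replicate 1 (9.96 against 9.09 TPM) and in CYGB replicate 3 (13.9 against 11.4 TPM), so this pair and the rank of TEAD3 no longer held in all 6 libraries.

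The table's own unit is the transcript, so the same comparison was made per transcript. Of 77 transcripts of the 9 genes, 40 passed the expression filter and 2 passed the threshold of the methods, both of YAP1, 1 in each direction. Over all 66609 transcripts tested, 681 passed (1.02%), 2517 had an unadjusted p under 0.05 (3.78%) and 10 an adjusted p under 0.05 (0.0150%). Among the 40, 4 had an unadjusted p under 0.05, all of YAP1, and 0 an adjusted p under 0.05 with edgeR. DESeq2 gave 3 YAP1 transcripts an adjusted p under 0.05, against 748 of all 66609 transcripts. It placed 4 past the threshold of the methods, against 1506 of all transcripts.

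The transcript that fell was ENST00000345877, which encodes 470 residues and skips the 114-base segment. It had 6870, 1012 and 6521 counts in MOCK against 37, 51 and 61 in CYGB libraries. Every CYGB value lay more than an order of magnitude under every MOCK value. The log2 fold change was -6.63 (SE 0.91, adjusted p = 0.212, edgeR), and DESeq2 gave -6.62 with an adjusted p of 1.42e-12. It stayed past the threshold of the methods with each of the 6 libraries left out, at -7.11 to -6.24.

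The transcript that rose was ENST00000529029, whose coding sequence is annotated as 257 residues without a start codon. It begins inside the 114-base segment and holds the last 51 bases of it. It had 0, 12 and 0 counts in MOCK against 569, 432 and 622 in CYGB libraries. All CYGB values lay above all MOCK values. Its log2 fold change was 7.07 (SE 1.72, adjusted p = 0.796, edgeR), and DESeq2 gave 7.13 with an adjusted p of 0.000902. The 12 counts of MOCK replicate 2 set the size of this fold. Without that library the fitted value was 12.06, which depends on the prior count because the remaining MOCK libraries had 0. With a single library left out it passed the threshold of the methods only without MOCK replicate 2.

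The other abundant YAP1 forms differed among the CYGB libraries. ENST00000537274, of 492 residues, had 1205, 290 and 1187 counts in MOCK against 7077, 0 and 5922 in CYGB libraries. It carries the 114-base and 12-base segments and skips the 48-base segment. ENST00000282441, of 504 residues, had 319, 344 and 181 counts in MOCK against 236, 7785 and 1059 in CYGB libraries. It carries the 114-base and 48-base segments and skips the 12-base segment. CYGB replicate 2 thus had most of its YAP1 counts on the 504-residue form, and CYGB replicates 1 and 3 had most of theirs on the 492-residue form. The 470-residue form was most abundant in all 3 MOCK libraries. A gene shared no most abundant transcript between the groups in 123 of 9292 genes of at least 10 CPM (1.32%), and in 1 of the 8 genes examined at that level, YAP1. The other 7 each had the same leading transcript in all 6 libraries.

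**Figure D3:**
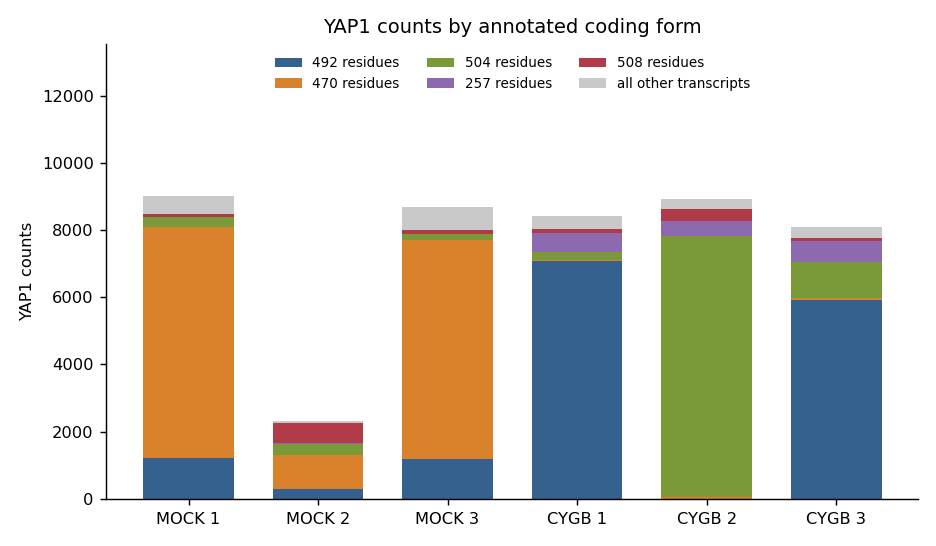
YAP1 counts in each library (stacked bars from 0), split by the number of residues in the annotated coding sequence. The 470-residue form fills 6870 and 6521 counts of MOCK replicates 1 and 3 and is at 37 to 61 counts in the CYGB libraries, where the 492-residue or the 504-residue form leads.

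The counts were then read by segment. Transcripts that carry all or part of the 114-base segment given above held 19.3%, 53.1% and 19.6% of YAP1 counts in MOCK and 97.7%, 98.0% and 97.5% in CYGB libraries. All 3 CYGB shares exceeded all MOCK shares, and MOCK replicate 2, the library with low YAP1, had the highest MOCK share. The means were 30.7% ± 19.4 (SD, n = 3) and 97.7% ± 0.247 (SD, n = 3), a difference of 67.0 percentage points. The exact two-sided permutation test gave p = 0.1, the smallest that 3 against 3 allows. The difference was 61.3 to 78.3 points with 1 library left out. Counting only transcripts that hold the whole segment, which leaves out ENST00000529029, the shares were 19.3%, 52.6% and 19.6% in MOCK and 91.0%, 93.1% and 89.8% in CYGB libraries, a difference of 60.8 points.

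In counts, transcripts that carry all or part of the segment had 1739, 1235 and 1705 in MOCK and 8218, 8727 and 7876 in CYGB libraries. Those that skip it had 6954, 1062 and 6676 in MOCK and 140, 167 and 190 in CYGB libraries. MOCK replicate 2 was near the other MOCK libraries in the first and far under them in the second. Reads can tell these forms apart in part. Of windows of 150 bases, the read length, 637 occur only in transcripts that carry all or part of the segment and 148 only in those that skip it. These windows were counted over whole transcripts and were not limited to those that touch the segment. They thus do not measure how well reads resolve it.

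Across genes of at least 10 CPM, 35 of 22705 alternative coding segments (0.154%) had groups that did not overlap and means that differed by at least 50 points. They lay in 28 of 7242 genes, and of the 3 YAP1 segments 1 was among them.

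The 12-base segment was carried by 91.0%, 84.0% and 90.4% of YAP1 counts in MOCK and by 93.2%, 9.57% and 83.3% in CYGB libraries. Only CYGB replicate 2 stood apart. The difference was -26.4 points (exact permutation p = 0.6) and -0.22 points without that library. The 48-base segment was carried by 81.4%, 84.2% and 79.8% in MOCK and by 12.1%, 97.4% and 22.7% in CYGB libraries. Here CYGB replicates 1 and 3 were low and CYGB replicate 2 was above all MOCK libraries, for a difference of -37.8 points (exact permutation p = 0.4) and of -64.4 points without CYGB replicate 2. A share that ranged over at least 50 points within a group was found in 1727 of the 22705 segments (7.61%), the 12-base and 48-base segments of YAP1 among them. How reads that fit several isoforms were divided is not given in the sources used here, and its part in these shares was not tested.

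**Figure D4:**
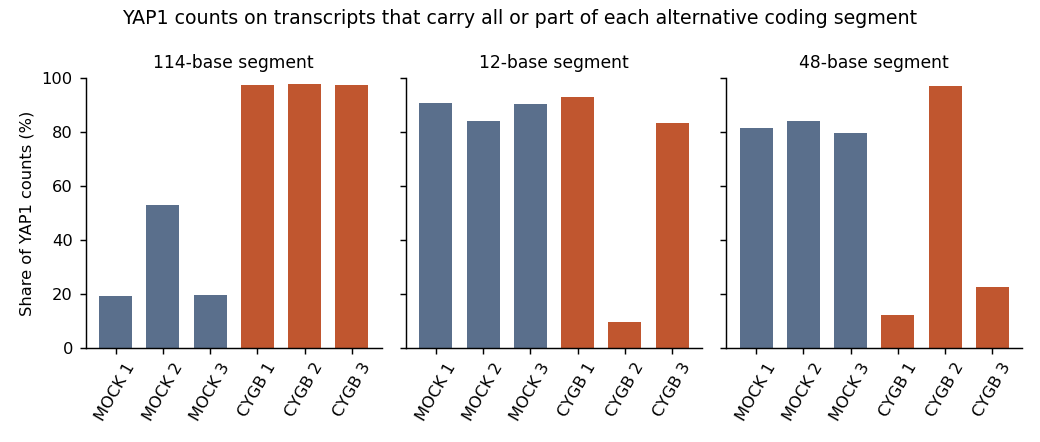
Share of YAP1 counts (percent, bars from 0) on transcripts that carry all or part of the 114-base, 12-base and 48-base segments in each library. The 114-base share is at most 53.1% in MOCK and at least 97.5% in CYGB libraries, while the other segments set CYGB replicate 2 apart from CYGB replicates 1 and 3.

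In WWTR1, TEAD1, TEAD2, TEAD3 and VGLL4, 1 transcript held most counts. WWTR1 had 91.7 to 96.3% of its counts on ENST00000360632, which encodes 400 residues. TEAD1 had 79.0 to 92.6% on ENST00000526600, annotated with 330 residues, while its 426-residue forms had 140, 85 and 88 counts in MOCK against 296, 85 and 338 in CYGB libraries. The 426-residue counts overlapped between the groups. TEAD2 had 80.0 to 97.3% on ENST00000377214, with 450 residues, and TEAD3 91.9 to 95.7% on ENST00000338863, with 435 residues. VGLL4 had 89.0 to 95.9% on ENST00000273038, with 290 residues. These 5 leading transcripts did not pass the threshold of the methods, and their log2 fold changes ran from -0.46 for ENST00000360632 to 0.45 for ENST00000526600.

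TEAD4, AMOT and AMOTL1 used more than 1 form in both groups. The 391-residue TEAD4 form, ENST00000358409, had 529, 512 and 458 counts in MOCK against 463, 328 and 473 in CYGB libraries. The 434-residue form had 182, 251 and 72 counts in MOCK against 355, 93 and 100 in CYGB libraries, with wide overlap. The long AMOT protein of 1084 residues, whose N-terminal region binds WW domains, had 1079, 930 and 1048 counts in MOCK against 1196, 891 and 1172 in CYGB libraries. The short AMOT protein of 675 residues, which lacks that region, had 174, 766 and 720 counts in MOCK against 167, 677 and 420 in CYGB libraries. It was low in replicate 1 of both groups.

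AMOTL1 had 1335, 136 and 1555 counts on its 906-residue form in MOCK and 1435, 170 and 1507 counts in CYGB libraries, low in replicate 2 of both groups. The 956-residue form, ENST00000433060, took the remainder, so that a 150-base segment was carried by 78.4%, 97.8% and 77.7% of AMOTL1 counts in MOCK and by 77.4%, 97.5% and 79.2% in CYGB libraries. The group difference was 0.08 points. Over all genes and transcripts, the deviations of same-numbered libraries correlated at 0.00 to 0.05 across features, and those of other pairs at -0.04 to 0.01. Features are not independent replicates. Whether same-numbered libraries shared a batch was not tested.

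**Figure D5:**
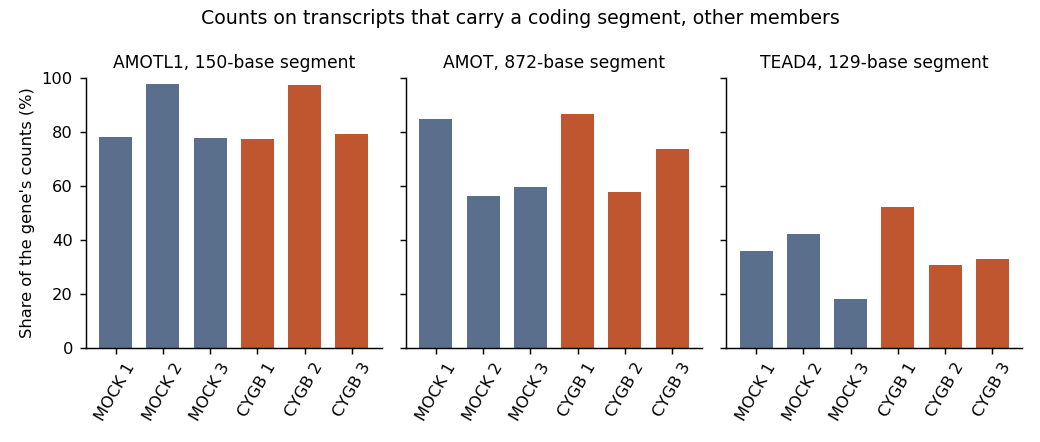
Share of the gene's counts (percent, bars from 0) on transcripts that carry an alternative coding segment of AMOTL1, AMOT and TEAD4 in each library. The groups overlap in all 3 panels, and the AMOTL1 share is at 97.8% and 97.5% in replicate 2 of the groups and at 77.4 to 79.2% in the other libraries.

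Other genes of the pathway were taken from 3 lists. Of 44 genes that regulate YAP1 and TAZ, the Hippo kinases and their upstream regulators, 44 were tested and 0 passed the threshold of the methods, with 2 higher and 2 lower at an unadjusted p under 0.05 (edgeR) and 4 without overlap. Of 24 other partners of the coactivators and TEAD factors, 22 were tested and 0 passed, with 1 lower at an unadjusted p under 0.05 and 5 without overlap. Of 22 YAP and TAZ targets, 21 were tested and 0 passed, with 1 higher at an unadjusted p under 0.05 and 1 without overlap. The median log2 fold changes were -0.05, -0.04 and -0.03, beside -0.01 over all genes. Of all genes tested, 4.54% had an unadjusted p under 0.05 (edgeR) and 11.0% had groups without overlap.

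FAT1, an atypical cadherin upstream of the kinases, had 37.4, 57.0 and 74.1 CPM in MOCK and 54.7, 309 and 488 CPM in CYGB libraries. CYGB replicate 1 lay within the MOCK range and the other CYGB values above it. The log2 fold change was 2.34 (SE 0.76, adjusted p = 0.963, edgeR). Without CYGB replicate 1, the CYGB library within the MOCK range, it was 2.83 (adjusted p = 0.251, edgeR). FAT1 was then among the 134 of 20841 genes that passed the threshold of the methods. With CYGB replicate 3 left out instead, its log2 fold change was 1.69 and it did not pass. YWHAH, a 14-3-3 protein of the kind that holds phosphorylated YAP1 in the cytoplasm, had 101, 106 and 203 CPM in MOCK and 253, 229 and 231 CPM in CYGB libraries, without overlap. Its log2 fold change was 0.80 (SE 0.28, adjusted p = 0.963). Without MOCK replicate 3, the highest MOCK library, it was 1.20 (adjusted p = 0.0593, edgeR). YWHAH was then among the 177 of 20748 genes that passed the threshold of the methods. With MOCK replicate 1 or 2 left out instead, its log2 fold change was 0.62 or 0.64 and it did not pass.

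NCOA1, a nuclear receptor coactivator, had 18.0, 41.4 and 11.5 CPM in MOCK and 9.82, 9.76 and 10.8 CPM in CYGB libraries, with a log2 fold change of -1.22 (SE 0.46, adjusted p = 0.963). MOCK replicate 2 was the high one, and the log2 fold change was -0.54 without it. CTBP2, a corepressor, had a log2 fold change of -0.23 (SE 0.13). Of the targets, NT5E, which encodes the ecto-nucleotidase CD73, had 219, 236 and 225 CPM in MOCK and 249, 269 and 259 CPM in CYGB libraries. These groups did not overlap, and the log2 fold change was 0.19 (SE 0.07, adjusted p = 0.963). FJX1 had a log2 fold change of -0.34 (SE 0.25).

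The genes whose log2 CPM followed YAP1 most closely over the 6 libraries, among 9946 genes compared, were JRK (r = 0.998), TRAPPC11 (r = 0.997), CIPC (r = 0.997), ZNF664 (r = 0.994) and CDC73 (r = 0.994). The points share library and depth, and each of these genes had its lowest value in MOCK replicate 2. JRK had 44.5, 3.67 and 39.8 CPM in MOCK and 31.9 to 36.9 CPM in CYGB libraries. Of the other 7 genes examined at that level, the correlation with YAP1 ran from -0.40 for AMOT to 0.44 for TEAD2.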

How the data were processed

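RNA of 6 HCT116 libraries (3 MOCK, 3 CYGB) was sequenced as paired 150-base reads on an Illumina NovaSeq instrument. For each transcript, the authors deposited raw counts that were not normalized. The submitters' processing notes name HISAT2, HISAT, DESeq2 and hg19, without roles, but 99.6% of the 151393 table transcripts found in GENCODE 29 had the same position there, so GRCh38 coordinates are given. Whether strand was used in counting is not given in the sources used here, so reads of overlapping antisense genes cannot be told apart. The 21225 transcripts without a gene (18.6 to 19.5% of counts) entered neither library sizes nor tests.

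Counts of transcripts, and their sums per gene, were filtered (filterByExpr, minimum count 10), scaled by TMM and tested with edgeR 4.0.16 in R 4.3.3 (glmQLFit, glmQLFTest) without a replicate block, with Benjamini-Hochberg adjustment over all features. DESeq2 1.42.0 was an alternative. The steps were tested on simulated data, where the transcript-level fit, unlike the gene-level fit, gave no changed feature an adjusted p under 0.05. The changed features were drawn from those with a mean of at least 10 counts. Their changes were large, with a median fitted size of 3.03 on the log2 scale for genes and for transcripts. Recovery of smaller changes was not tested. The threshold of the methods recovered 91.5% of changed genes and 67% of changed transcripts there. It was also passed by 120 unchanged genes (19307 genes tested) and 533 unchanged transcripts (60487 tested). TPM was the sum over transcripts of count per GENCODE length, with a pseudocount of 0.01 for log ratios. Residues are annotated coding bases over 3, and segments are coding stretches that some protein coding transcripts of a gene hold and others lack, and a transcript that holds part of a segment was counted as carrying it. Pairs of libraries differed by more than sampling noise, so none was taken as a copy of another, and each counted as 1 replicate. That check cannot show whether the libraries came from separate cultures.

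The genes and lists were chosen with earlier results of these data known. All 9 genes were named. From each pathway list the genes past the threshold of the methods were to be named, otherwise those 2 with the lowest p. Named transcripts were those past that threshold and the most abundant 1 of each gene, and other forms were chosen after their values were seen. The backgrounds for segments, leading transcripts and low libraries were also set after the values were seen.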

Additional observations from a re-analysis of the deposited data

How the results depend on the processing

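At gene level, 0 of the 9 genes passed either threshold under any alternative run. With 1 library left out 0 to 1 had groups that did not overlap (AMOT, TEAD1, AMOTL1 or WWTR1). Smaller groups separate more easily, and the share over all genes was not computed for these runs. Of the transcripts, 2 passed the threshold of the methods, against 4 with DESeq2 and 1 under a filter at a mean of 50 counts. With 1 library left out 1 to 4 passed, the 4 without MOCK replicate 2. Over all transcripts, 1506 of 66609 passed with DESeq2 and 319 of 37760 under that filter. With 1 library left out 961 to 1209 did, and 1036 of 72632 without MOCK replicate 2. DESeq2 gave 3 transcripts of the 9 genes an adjusted p under 0.05, and 748 over all transcripts. With the replicate number as a block, 1 passed. Whether the numbers stand for a batch or a pairing is not stated and was not tested. Same-numbered libraries correlated at 0.01 to 0.03 in gene-level deviations. MOCK replicates 1 and 3 but not 2 correlated best with the CYGB library of their own number. The block moved all gene calls from 113 to 78 and all transcript calls from 681 to 291. In the Hippo kinase arm 1 gene (FAT1) passed with DESeq2, and 0 to 1 with 1 library left out, as in the other partners, where the 1 was TJP1 or NCOA1. Over all genes, 263 of 19987 passed with DESeq2 and 124 to 177 with 1 library left out. With protein coding transcripts only, added after the data were seen for the lists, 1 gene of the Hippo kinase arm (FAT1, log2 fold change 3.10) and 1 target (RBMS3, -1.84) passed. Both had an adjusted p of 0.947 (edgeR), and 79 of all 13909 genes tested in that run passed. With union exon lengths, 6 paralog pairs had an adjusted exact p under 0.05. The segment differences kept their signs in all alternatives, including counts restricted to transcripts that carry or skip the segment or that hold it whole, both added after the data were seen.

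With 1 library left out, signs turned for YAP1 (-0.12 to 0.64 on the log2 scale), TEAD2 (-0.19 to 0.029), TEAD3 (-0.43 to 0.36), TEAD4 (-0.39 to 0.089), VGLL4 (-0.15 to 0.083) and AMOTL1 (-0.0094 to 0.089), and for ENST00000371959 of AMOT (-0.011 to 0.21), ENST00000433060 (-0.10 to 0.18), ENST00000377214 (-0.14 to 0.13), ENST00000338863 (-0.37 to 0.42) and ENST00000273038 (-0.21 to 0.045). The cause was not tested.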
